A study of Mus musculus with 11 samples.

Results

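The 10 genes described here encode subunits of the protein complexes of autophagy initiation, with Uvrag in a complex of endosomes and later steps. They were read in liver sinusoidal endothelial cells (LSEC), which form the perforated wall of the capillaries of the liver. The genes are Ulk1, Ulk2, Atg13, Rb1cc1 and Atg101 of the ULK kinase complex, and Pik3c3, Pik3r4, Becn1, Atg14 and Uvrag of the class III phosphatidylinositol 3-kinase (PI3K) complexes. Each was taken by its gene symbol in the array's annotation, and each has 1 transcript cluster (the set of probes that reads a transcript), so they are 10 of 19505 symbols. RNA was measured on 11 Mouse Clariom S arrays. All mice carried floxed Atg5 (Atg5lox/lox) and were given high fat food from 8 weeks of age for 2 weeks. The 6 wild type arrays are from mice with this genotype alone, and the 5 knockout arrays, titled autophagy deficient, from mice that also carried VE-cadherin-Cre. The VE-cadherin promoter is active in endothelial cells generally, so the model is not limited to the sinusoids. The comparison asks how loss of Atg5 in endothelium goes with the transcripts of the step upstream of it.

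Autophagy wraps cytoplasm into a double membrane that is delivered to lysosomes. When nutrients are short or stress is sensed, the ULK kinase complex is released from inhibition by mTORC1 and is activated by AMP-activated kinase. It then recruits and phosphorylates the PI3K complex with Atg14, which makes phosphatidylinositol 3-phosphate (PI3P) at the site where the membrane forms. The ATG5 protein acts after this step, in the conjugation of LC3 to the growing membrane. In sinusoidal endothelium, autophagy is known for its part in the response to shear stress and in protection against oxidative injury.

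All 10 genes read above the mean of the antigenomic background probes on all 11 arrays, with the smallest margin, 1.07 on the log2 scale, for Rb1cc1. The tissue label was checked against its markers: 19 of 19 LSEC markers read above background on every array and they averaged 11.86 ± 0.10 (SD, n = 6) over the wild type arrays and 11.86 ± 0.13 (SD, n = 5) over the knockout arrays. Other cells were present in the preparations. The mean of 17 macrophage markers, 16 of them above background on every array, ran from 7.23 to 8.38 in wild type and from 7.81 to 9.99 in knockout (exact permutation p = 0.013, adjusted over 10 array measures 0.0865). The mean of 21 hepatocyte markers, all above background on every array, ran from 8.71 to 10.03 in wild type and from 7.79 to 9.30 in knockout (exact permutation p = 0.0433, adjusted 0.144). The mean of 3 erythroid and platelet markers ran from 7.35 to 7.61 in wild type and from 7.28 to 7.43 in knockout (exact permutation p = 0.0173, adjusted 0.0865). The knockout minus wild type difference lay above 0 for all 10 stellate cell markers (median 0.41; exact permutation p = 0.184 for their mean, adjusted 0.368) and below it for all 5 cholangiocyte markers (median -0.23; exact permutation p = 0.0887, adjusted 0.222). The lymphocyte and neutrophil marker means had an exact permutation p of 0.481 and 0.82. Bulk arrays cannot tell fewer cells of a type from less RNA per cell. The intron control rows, which read unspliced or genomic sequence, split the arrays into a set of 4 with means of 5.75 to 5.96 (wild type 1 and 6, knockout 3 and 4) and a set of 7 with means of 5.05 to 5.38. Both genotypes are in both sets. Atg5 itself read between 7.38 and 7.59 in wild type and at 7.48, 7.57, 7.54, 7.90 and 7.53 in knockout arrays 1 to 5. Where its probes lie relative to the floxed exon is not known here, and the level cannot serve as a check of the genotype, which is taken from the labels throughout.

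None of the 10 genes passed an adjusted p of 0.05 in limma's fit over 22206 clusters, where 0% of all clusters did. By the study's own rule, which asks for a 1.5-fold change together with an unadjusted p no higher than 0.05, 0 of 10 were called in either direction, against 0.671% of all clusters called higher and 0.356% called lower in knockout (149 and 79 clusters, a balance that turned to 99 and 146 with array weights and to 125 and 138 without knockout array 2). At an unadjusted p of 0.05 alone the count was also 0 of 10, against 6.39% of all clusters (2.61% higher and 3.78% lower in knockout, or 3.88% and 2.15% after median centring). In 0 of 10 genes did the genotypes' ranges separate, which happened for 0.18% of clusters with knockout above and 0.293% with knockout below. The differences (knockout minus wild type, log2) were small and mostly on one side. They lay above 0 for 9 of 10 genes with a median of 0.14, while 46% of all clusters lay above 0 with a median of -0.02 (54.9% above 0 after median centring, where all 10 genes lay above 0). Leaving out single arrays, the median of the 10 ran from 0.09 without knockout array 3 to 0.18 without wild type array 6. The 95% interval of the difference excluded a fold of 1.5 in both directions for 8 of the 10 genes. This was in the fit to all arrays, without weights or covariates, and the exceptions were Rb1cc1 and Pik3c3. It depended on the fit. With array weights the interval of Atg14 (-0.14 to 0.66) included that fold, as it also did without each of several single arrays. Without knockout array 1 that of Ulk1 (-0.08 to 0.61) did. So did the intervals of Atg13 (-0.08 to 0.64) with the hepatocyte mean as a covariate and of Atg101 (-0.10 to 0.64) with the macrophage mean. These are examples and not a full list. On average over the knockout arrays macrophage markers were higher and hepatocyte markers lower, though neither mean passed correction. The shifts did not run together array by array. Knockout array 2 had the highest mean of both marker lists among the knockout arrays (9.99 and 9.30). With the hepatocyte mean as a covariate the median of the 10 was 0.06 with 8 of 10 above 0. With the macrophage mean it was 0.16 with 8 of 10, and with both 0.05 with 7 of 10. With the intron mean as a covariate it was 0.09 with 9 of 10. Of all clusters, 48% lay above 0 with the hepatocyte mean, 39.5% with the macrophage mean, 42.1% with both and 47.1% with the intron mean. The medians of all clusters were -0.014, -0.074, -0.079 and -0.012 in the same order. In the fit with both marker means the SE ran from 0.28 (Becn1) to 0.91 (Rb1cc1), against 0.09 and 0.45 without covariates. No interval of the 10 genes in that fit excluded a fold of 1.5 in both directions, and that of Becn1 ran from -0.60 to 0.64. The marker means ran partly with genotype, and the part of other cells in these differences was not tested.

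**Figure D1:**
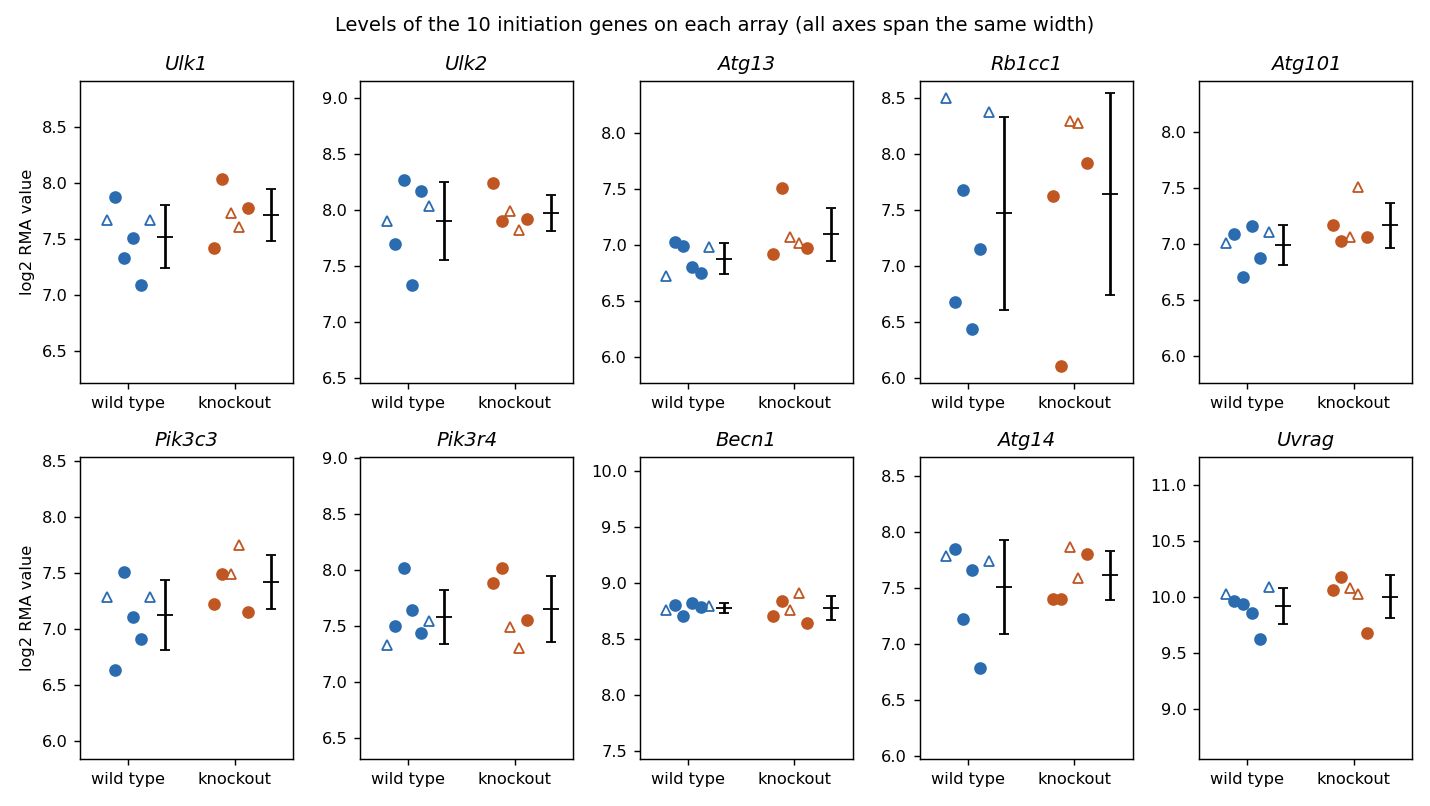
Log2 RMA level of each of the 10 genes (vertical axis) on each wild type (blue, n = 6) and knockout (orange, n = 5) array, with mean ± SD in black. Open triangles are the 4 arrays with high intron control signal and filled circles the other 7. The genotypes overlap for all 10 genes, Becn1 is the tightest and Rb1cc1 the most spread, with its 4 triangles on top.

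The kinases come first in the ULK complex. Ulk1, the main autophagy-initiating kinase, read from 7.09 to 7.88 with a median of 7.59 in wild type, and 7.42, 8.04, 7.74, 7.61 and 7.78 in knockout arrays 1 to 5. Wild type array 5 was the lowest of the 11 and knockout array 2 the highest. The difference was 0.19 (SE 0.15), with a 95% interval from -0.14 to 0.52 and an exact permutation p = 0.247, and it was 0.11 without wild type array 5 and also without knockout array 2. Its paralogue Ulk2, which can take its place in many cells, read from 7.33 to 8.27 in wild type and from 7.82 to 8.24 in knockout. Here the knockout arrays all lay inside the wild type range, and the difference was 0.08 (SE 0.16, interval -0.27 to 0.42). The knockout to wild type change in Ulk1 relative to Ulk2 within the same array was 0.12, with an exact permutation p = 0.703 over the 462 splits of the arrays, adjusted to 0.935 over the 2 subunit contrasts made.

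The promoters of this pair are shown because the paralogues are contrasted above, with upstream sequence from RefSeq (GRCm38.p6, minus strand for both). Each line gives the 250 bases before the transcription start, 5′ to 3′, for Ulk1 at chr5:110810082-110810331 and Ulk2 at chr11:61855093-61855342. Capitals mark GGGCGG, the letters bound by SP1-type factors, or its reverse complement.
Ulk1: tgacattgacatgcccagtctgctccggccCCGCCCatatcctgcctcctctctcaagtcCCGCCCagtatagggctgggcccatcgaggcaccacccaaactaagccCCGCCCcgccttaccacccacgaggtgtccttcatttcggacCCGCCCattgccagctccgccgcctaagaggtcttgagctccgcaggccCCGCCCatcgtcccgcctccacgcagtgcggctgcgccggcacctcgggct
Ulk2: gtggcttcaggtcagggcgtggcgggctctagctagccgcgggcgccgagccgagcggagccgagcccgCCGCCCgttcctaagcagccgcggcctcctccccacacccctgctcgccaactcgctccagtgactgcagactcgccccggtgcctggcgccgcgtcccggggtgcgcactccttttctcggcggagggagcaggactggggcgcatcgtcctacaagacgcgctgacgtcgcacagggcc
The Ulk1 sequence holds the hexamer 5 times and Ulk2 once, and it was found in 35.7% of all 32851 promoter windows of 300 bases. The GC content was 67.2% for Ulk1 and 72.8% for Ulk2. A match is a description of letters and not a measured binding site.

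The adaptors of the ULK complex follow. Atg13, which links the kinase to the rest of the complex and is itself a target of mTORC1, read from 6.72 to 7.03 with a median of 6.89 in wild type. In knockout arrays 1 to 5 it read 6.92, 7.51, 7.07, 7.02 and 6.97. Knockout array 2 stood above all others, and the other 4 knockout arrays lay between the wild type median and just above the wild type maximum. The difference was 0.22 (SE 0.12, interval -0.05 to 0.49), above the wild type mean on 5 of 5 knockout arrays, with an exact permutation p = 0.0758 and a limma adjusted p = 0.765. Without knockout array 2, which also had the highest macrophage marker mean (9.99), it was 0.12. Atg101, the small HORMA-domain partner that stabilises ATG13, read from 6.70 to 7.16 in wild type and 7.17, 7.03, 7.06, 7.51 and 7.06 in knockout. Knockout array 4 was the highest, and the difference was 0.18 (SE 0.12, interval -0.09 to 0.44, exact permutation p = 0.186). It was 0.09 without knockout array 4.

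Rb1cc1, which encodes the scaffold FIP200, varied far more than any other of the 10. It read 8.50, 6.68, 7.68, 6.44, 7.15 and 8.38 in wild type arrays 1 to 6 and 7.63, 6.11, 8.30, 8.28 and 7.92 in knockout arrays 1 to 5, a 5.24-fold span. High and low arrays occurred in both genotypes. The difference of 0.18 therefore had an SE of 0.45 and an interval from -0.79 to 1.14, and it was -0.03 when wild type array 4 was left out and 0.56 when knockout array 2 was. Its SD within genotypes was 0.88, larger than that of 99.0% of the 3547 clusters with a mean level within 0.5 of its own, whereas for the other 9 genes this share ran from 0.4% (Becn1) to 70.6% (Atg14).

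Rb1cc1 was highest on the arrays with high intron control signal. The 4 arrays with high intron signal read 8.28 to 8.50 and the other 7 read 6.11 to 7.92, so the sets did not overlap. Within wild type the high set averaged 1.45 above the low set and within knockout 1.07. None of the other 9 genes had all 4 of these arrays above the rest. Since 6.89% of all clusters had, and 7.17% had all 4 below the rest, 1 gene of 10 is near the background. Among the 7 arrays of the low set the level again followed the intron mean (Pearson r = 0.85, exact permutation p = 0.0246; Spearman rho = 0.79, exact permutation p = 0.048), and r was 0.84 over the 5 arrays left without knockout arrays 1 and 5. Over the 10 genes tested this way the adjusted values were 0.123 and 0.24, so the relation does not pass correction. Becn1 ran the other way (r = -0.89, exact permutation p = 0.0119, adjusted 0.119; rho = -0.83, exact permutation p = 0.0302, adjusted 0.24; r = -0.94 without the same arrays), over a far narrower span of levels and within these 7 arrays only. Its high set averaged 0.11 above its low set within knockout and matched it to the second decimal within wild type, and its highest level, 8.91, was on knockout array 4 of the high set. With the intron mean as a covariate the Rb1cc1 difference was 0.09 with an SE of 0.22. Within the high set alone (2 arrays against 2) it was -0.15 and within the low set (4 against 3) 0.23, and its part in the genotype comparison was not tested further.

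**Figure D2:**
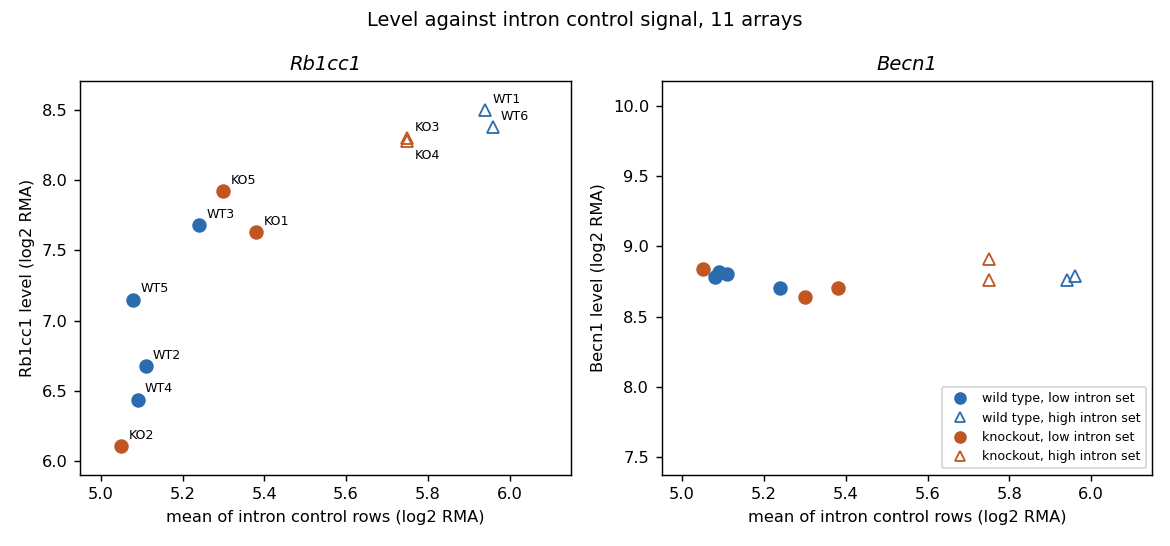
Log2 RMA level of Rb1cc1 (left) and Becn1 (right) against the mean of the intron control rows on the same array, both vertical axes with the same span. Rb1cc1 runs from 6.11 on knockout array 2, which has the lowest intron signal (5.05), to 8.50 on wild type array 1, at 5.94. High and low Rb1cc1 levels occur in both genotypes, while Becn1 stays between 8.64 and 8.91.

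With the mean of the macrophage markers as a covariate, Rb1cc1 was the 1 gene of the 10 that met the study's rule, with a difference of 1.30 (SE 0.43), an unadjusted p = 0.00919 and a limma adjusted p = 0.278. In that fit 5.36% of all clusters were called higher and 14.9% had an unadjusted p of at most 0.05. Knockout array 2 combined the highest macrophage mean of the 11 arrays with the lowest Rb1cc1 level. With the hepatocyte mean instead, the difference was -0.63 (SE 0.48), and its direction is therefore not settled by these arrays.

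In the PI3K complexes, the catalytic lipid kinase Pik3c3 (VPS34), which makes the PI3P that marks the nascent membrane, had the largest difference of the 10. It read from 6.63 to 7.51 with a median of 7.20 in wild type, and 7.22, 7.49, 7.49, 7.75 and 7.15 in knockout arrays 1 to 5. The wild type mean of 7.12 was exceeded on 5 of 5 knockout arrays, but only knockout array 4 lay above the wild type maximum, and wild type array 2 was the lowest. The difference was 0.30 (SE 0.16), a 1.23-fold difference with an interval from 0.96-fold to 1.57-fold, an exact permutation p = 0.134 and a limma adjusted p = 0.765. Leaving out wild type array 2 gave 0.20 and leaving out wild type array 3 gave 0.37, and it was 0.33 within the high intron set and 0.25 within the low set. Pik3r4 (VPS15), the pseudokinase scaffold that holds the lipid kinase, read from 7.33 to 8.02 in wild type and from 7.31 to 8.02 in knockout. These ranges almost coincide, and the difference was 0.07 (SE 0.15, interval -0.26 to 0.41).

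Becn1, the regulatory subunit that BCL2 family proteins bind and hold inactive, was the steadiest of the 10. It read from 8.70 to 8.82 in wild type and 8.70, 8.84, 8.76, 8.91 and 8.64 in knockout, an extreme ratio of 1.21-fold over all 11 arrays. The difference was -0.005 (SE 0.09), with an interval from 0.87-fold to 1.14-fold in this fit. After repeated quantile normalization it was -0.11 (SE 0.10, interval -0.32 to 0.10).

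Atg14 and Uvrag bind Becn1 in place of each other, the first directing the kinase to the forming autophagosome and the second to endosomes and later steps. Atg14 read from 6.78 to 7.85 with a median of 7.70 in wild type and 7.40, 7.40, 7.86, 7.59 and 7.80 in knockout. Wild type array 5 was far below the other arrays, and the difference of 0.11 (SE 0.19, interval -0.30 to 0.51) became -0.04 without it. Uvrag read from 9.63 to 10.09 in wild type and 10.06, 10.18, 10.08, 10.03 and 9.68 in knockout, with wild type array 5 and knockout array 5 low. Its difference was 0.09 (SE 0.12, interval -0.17 to 0.34), 0.03 without the first of these and 0.17 without the other. The change in Atg14 relative to Uvrag within an array was 0.02 (exact permutation p = 0.935, adjusted 0.935), a shift smaller than the array-to-array spread of this balance.

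The start regions of both alternative subunits are printed for the same contrast (RefSeq, GRCm38.p6, minus strand). The Uvrag line is chr7:99141145-99141394, the 250 bases before its start, with CCAAT (the NF-Y letters) and GGGCGG, or its reverse complement, in capitals. The Atg14 line is the 30 bases at chr14:47568418-47568447 that span its start, with CACGTG in capitals, the E-box core of the element bound by the lysosome and autophagy regulator TFEB.
Uvrag: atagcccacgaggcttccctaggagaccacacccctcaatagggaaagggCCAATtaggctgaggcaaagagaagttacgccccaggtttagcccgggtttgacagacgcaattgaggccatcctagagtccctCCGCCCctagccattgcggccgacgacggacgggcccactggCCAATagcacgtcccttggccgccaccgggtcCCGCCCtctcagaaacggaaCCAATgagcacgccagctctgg
Atg14: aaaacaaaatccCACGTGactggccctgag
Windows of 300 bases (250 before the start and 50 after) were found for 7 of the 10 genes: Ulk1, Ulk2, Atg13, Atg101, Pik3r4, Atg14 and Uvrag. CACGTG was in the Atg14 window alone, against 7.15% of all windows, and the full CLEAR element, a palindrome of 10 letters that contains it, in none of the 7 against 0.326%. CCAAT was in Pik3r4 and Uvrag (37.4% of all windows), GGGCGG in Ulk1, Ulk2, Atg14 and Uvrag, and the ETS letters CCGGAAGT in Atg101 (3.89%). The forkhead letters GTAAACA (3.65%) and the CREB letters TGACGTCA (1.79%) were in none of the 7. Both strands were searched.

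**Figure D3:**
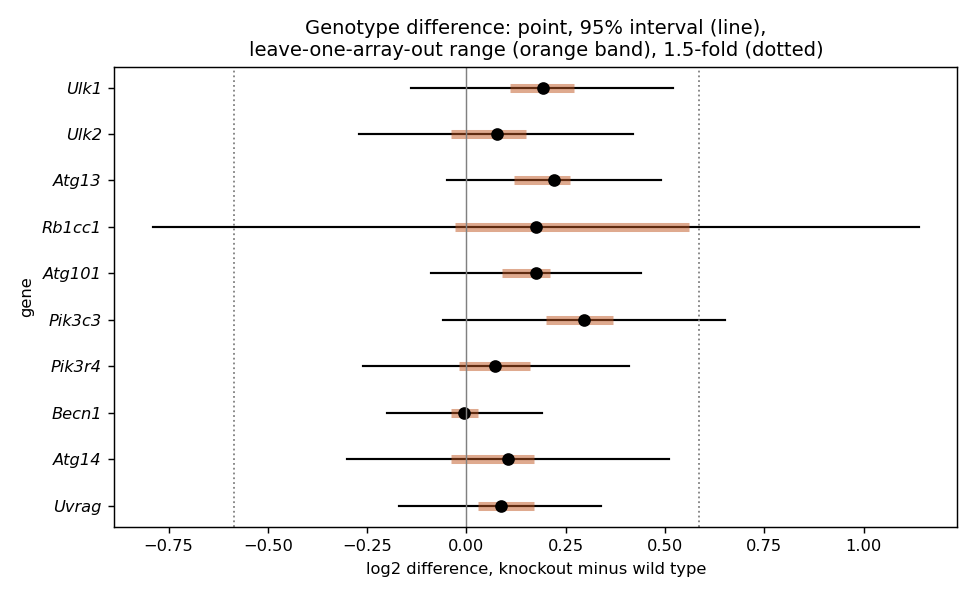
Log2 difference (knockout minus wild type, horizontal axis) for each of the 10 genes, with limma's 95% interval as a line and the range over leaving out each array as an orange band; dotted lines mark 1.5-fold. All intervals include 0, that of Becn1 is the narrowest (-0.20 to 0.19) and that of Rb1cc1 the widest (-0.79 to 1.14).

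The 5 ULK complex genes all lay above 0 (median 0.18), as did 4 of the 5 PI3K complex genes (median 0.09). Within the 7 low intron arrays 9 of 10 genes lay above 0 with a median of 0.16, and within the 4 high ones (2 against 2) 5 of 10 did with a median of 0.00, a contrast between the sets that was not tested. After subtraction of the genotype means, the levels of the 10 genes followed no single course over the arrays. Of 45 pairs, 28 had a correlation above 0, and the median r was 0.12, with Ulk1 and Atg14 highest (0.72) and Ulk2 and Atg101 lowest (-0.60), values given as a description over 11 arrays. Wild type array 5 was the lowest of all arrays for 3 of the 10 genes (Ulk1, Atg14 and Uvrag), and it had the highest hepatocyte marker mean (10.03). Among 14087 other symbols above background on every array, those closest to the mean course of the 10 standardised genes were Zfp384 (r = 0.93), Atg4b (0.92), Mau2 (0.92), Fam219a (0.91) and Dynlt1c (0.91), as a description over the same 11 arrays. These 5 are the highest of the 14087 correlations, and such a selection gives high values by itself. Atg4b encodes the protease that processes LC3 before its conjugation, and its place among them was not tested.

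The kinases upstream of the ULK complex gave no call by the study's rule, 0 of 16 in either direction. At an unadjusted p of 0.05, 0 were higher and 1 was lower, against 2.61% and 3.78% of all clusters. That one was Prkaa2, a catalytic subunit of AMP-activated kinase, with a mean of 5.12 ± 0.23 (SD, n = 6) over wild type arrays and 4.70 ± 0.09 (SD, n = 5) over knockout arrays, with a limma adjusted p = 0.765 and an exact permutation p = 0.00649. It read below the antigenomic background mean on 5 of 11 arrays, so the size of this difference is uncertain. Rheb, the GTPase that activates mTORC1, differed by 0.27 (SE 0.14), and Tsc1, part of the complex that restrains Rheb, by 0.36 (SE 0.20). The list median was 0.12.

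Among 10 direct partners and regulators 0 were called by the rule or at an unadjusted p of 0.05, and the median was 0.13. Bcl2, the inhibitor of Becn1, differed by 0.20 (SE 0.13), the scaffold Ambra1, which joins both complexes, by 0.21 (SE 0.15), and Usp10, a deubiquitinase of Becn1, by 0.13 (SE 0.13).

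Genes that act on or through PI3P were also without a call by the rule, 0 of 10 for effectors and membrane supply and 0 of 9 for turnover. Of the first, 1 was higher at an unadjusted p of 0.05, against 2.61% of all clusters. That gene was Zfyve1, the PI3P-binding marker of the sites where autophagosomes form. It went from 8.60 ± 0.28 (SD, n = 6) to 8.94 ± 0.21 (SD, n = 5), with an exact permutation p = 0.0584 and a limma adjusted p = 0.765. Wdr45 differed by 0.24 (SE 0.15) and the membrane protein gene Atg9b by -0.27 (SE 0.14), and the list median was 0.08. Of the second, all 9 lay above 0, against 46% of all clusters, with a median of 0.21, and 1 was higher at an unadjusted p of 0.05. This was Mtmr14, a phosphatase that removes the phosphate of PI3P, which went from 9.31 ± 0.17 (SD, n = 6) to 9.73 ± 0.23 (SD, n = 5), above the wild type mean on 5 of 5 knockout arrays, with an exact permutation p = 0.0108 and a limma adjusted p = 0.765. Its relatives Mtmr1 (0.38, SE 0.21) and Mtmr2 (0.27, SE 0.19) did not pass.

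The class I and II PI3 kinases, which act in growth factor and endocytic signalling, had 0 of 10 called by the rule and a median of 0.19. Pik3r5, the regulatory subunit of the leukocyte kinase PI3K gamma, was the 1 gene higher at an unadjusted p of 0.05, against 2.61% of all clusters. Its difference was 0.56 (SE 0.20, exact permutation p = 0.0368, limma adjusted p = 0.765). The catalytic subunits Pik3cb and Pik3cg differed by 0.46 (SE 0.24) and 0.28 (SE 0.16). Macrophage markers were higher in the same knockout arrays (median difference 1.12 over 17 genes, 14 of them called by the rule). With their mean as a covariate 8 genes of these 5 lists met the rule in place of 0. Calls rose in general in that fit, where 1733 of all 22206 clusters met the rule in place of 228. The macrophage mean ran partly with genotype, and the part of macrophages in the differences of these kinases was not tested.

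**Figure D4:**
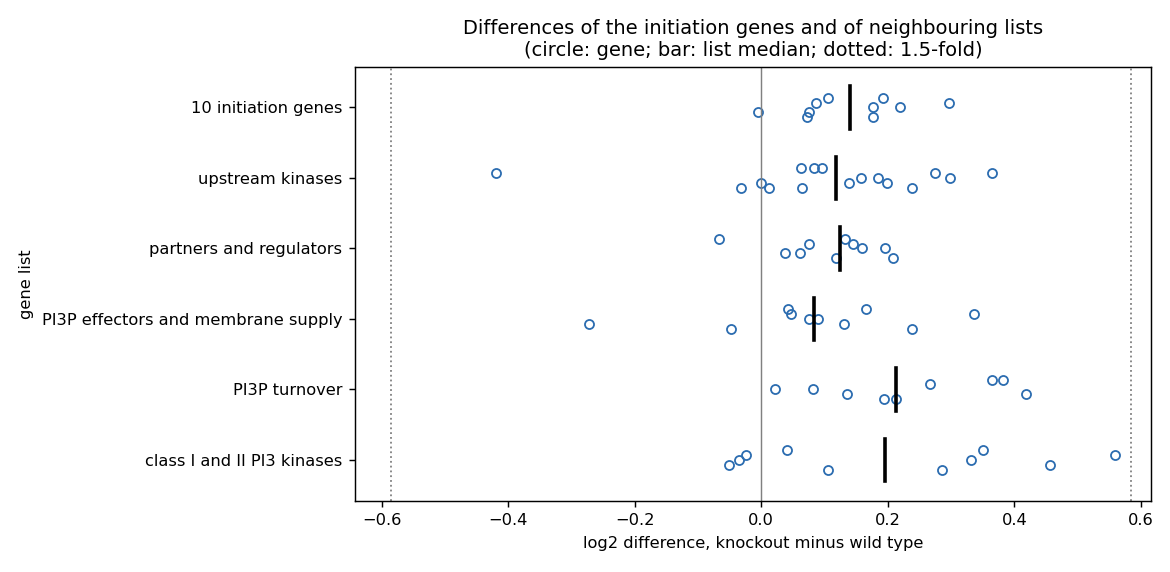
Log2 difference (knockout minus wild type, horizontal axis) of each gene as a circle, for the 10 initiation genes and 5 neighbouring lists, with list medians as bars and 1.5-fold as dotted lines. No circle lies beyond the dotted lines, and the list medians run from 0.08 (PI3P effectors and membrane supply) to 0.21 (PI3P turnover).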

How the data were processed

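The authors deposited log2 values, 1 column per array, made with Affymetrix Expression Console and RMA per the submitters' processing notes (no versions named there). RMA removes background, gives the probe values of all arrays 1 distribution and then summarises probes, which compresses weak signals. The array medians of the tested clusters still ran from 6.61 to 6.75. Scanner files, scan dates and the genome build were not used here. RNA was extracted with Trizol and labelled from 100 ng, per the labels' protocols. How the cells were isolated is not given in the sources used here.

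Arrays were grouped by title. The titles number biological replicates without naming animals, so which or how many mice each array draws on is not known here. The p-values reflect only the spread among these samples. Of 28846 rows, 6640 controls were left out and 22206 clusters tested; 19572 have 1 symbol and 2634 none. Genotype was fitted with limma 3.58.1 in R 4.3.3 (lmFit, eBayes), with Benjamini-Hochberg adjustment over all clusters. For single values an exact permutation test (two-sided, all 462 splits) was run (smallest p 0.00216). The number of arrays limits the precision. The genes, lists and tests were chosen with earlier results of these data known. Named are all 10 genes, Atg5, the 3 of smallest p in each neighbouring list and the 5 symbols most like the mean course. The contrasts of alternative subunits and the sets of arrays by intron signal were added after the data were seen. Counts over lists are of measured genes; a few others are not analysed here. Same-numbered arrays of the genotypes did not deviate together (correlations from -0.321 to 0.389), so numbers were treated as names. The fit was tested on simulated data drawn with each cluster's mean and variance. There the study's rule found 38.5% of 78 clusters changed by 0.58 (log2) and 98.4% of 62 changed by 1. The adjusted p found 26.9% and 80.6%. A change of 0.58 lies at the rule's own fold cut, so estimates below the cut failed whatever their p. The 38.5% therefore reflects this cut as well as the spread. Whether these rates carry over to the real arrays was not tested.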

Additional observations from a re-analysis of the deposited data

Results flagged for a closer look

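Among 34 sets of arrays of 1 genotype (the 10 genes, Atg5, 4 array measures and 2 subunit contrasts), 2 held an array far from the others by Dixon's gap at its 95% critical value; chance alone gives about 1 in 20. Atg13 read 7.51 on knockout array 2 against 6.92 to 7.07 on the other knockout arrays. Atg5 read 7.90 on knockout array 4 against 7.48 to 7.57 on the others.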

How the results depend on the processing

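Over 25 alternative fits no initiation gene passed an adjusted p of 0.05, and Pik3c3 and Atg101 lay above 0 in all of them. With the macrophage mean as a covariate 1 gene (Rb1cc1) met the study's rule and also an unadjusted p of 0.05. In that fit 5.36% of all clusters were called higher by the rule and 14.9% had such a p. Without wild type array 3, 1 gene had such a p (Pik3c3, limma unadjusted p = 0.0374). Leaving out 1 array gave 0 to 1 such genes. In the fit to all arrays 6.39% of all clusters had such a p, so 1 gene of the 10 is near that share. The median difference was 0.00 in the 4 high intron arrays alone, where these also turned: Atg14 (-0.03), Becn1 (0.06), Pik3r4 (-0.04), Rb1cc1 (-0.15), Ulk2 (-0.06) and Uvrag (-0.005). With the hepatocyte mean Atg14 (-0.17), Becn1 (0.01) and Rb1cc1 (-0.63) turned, with the macrophage mean Pik3r4 (-0.11), and with both Atg13 (-0.06), Becn1 (0.02), Pik3r4 (-0.24) and Ulk1 (-0.06). Median centring turned Becn1 (0.03), array weights Pik3r4 (-0.03) and repeated quantile normalization Uvrag (-0.002). Leaving out 1 array, differences ran from -0.04 to 0.17 for Atg14, -0.04 to 0.03 for Becn1, -0.02 to 0.16 for Pik3r4, -0.03 to 0.56 for Rb1cc1, -0.04 to 0.15 for Ulk2, 0.03 to 0.17 for Uvrag and 0.11 to 0.27 for Ulk1. The cause was not tested. Of all clusters, 228 met the rule; 1247 did at a fold of 1.2, 595 with the hepatocyte mean, 1733 with the macrophage mean, 445 with both and 359 without the high intron arrays. Higher and lower calls, 149 and 79, were 93 and 352 with both means; with an array left out the lower ones numbered 37 to 138. Past an adjusted p of 0.05 were 0 clusters (1419 had an unadjusted p of at most 0.05), 6 with the hepatocyte mean, 22 with the macrophage mean and 0 to 1 with an array left out (1 without wild type array 5). Genes of the neighbouring lists that met the rule numbered 0, 2 with the hepatocyte mean, 8 with the macrophage mean, 1 without the high intron arrays, 1 after median centring and 0 to 1 with an array left out. With the replicate number as a block (replicate block), 0 initiation genes were called, the median was 0.18 and Pik3c3 differed by 0.33, so it changed no call. The fits by sets of intron signal were added after the data were seen.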
